A study of Mus musculus with 10 samples.

Results

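Transcript levels of 10 genes were followed in sorted skin keratinocytes of mice that carry a progeria transgene pair and of wild type mice. They are genes of the epidermal basement membrane and protease genes of the Adamts family. The genes are the type IV collagen genes Col4a1, Col4a2, Col4a5 and Col4a6, the anchoring fibril collagen gene Col7a1, the laminin gene Lama5, the Fraser complex genes Fras1 and Frem2, and the protease genes Adamts1 and Adamts14. They were chosen by their levels in all 4 groups of the deposited tables, with the differences between genotypes already known, so the differences below describe them and are no independent test of the choice. The 10 genes took 10 of the 11464 loci of status OK in the suprabasal table and 11 of the 11290 in the basal table, where Col4a6 has a second locus.

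The skin came from FVB/N mice on postnatal day 4, and cells were separated by flow cytometry into the suprabasal and the basal layer. The groups were bitransgenic suprabasal cells (BT, labelled as a model of Hutchinson-Gilford progeria, HGPS; 2 samples), wild type (WT) suprabasal cells (3 samples), BT basal cells (2 samples) and WT basal cells (3 samples). The labels name neither the transgenes nor the promoter that drives them, and all groups share the strain, the age and the sort. The tables hold 1 level per locus and group, read as FPKM (fragments scaled to transcript length and to the mapped fragments of a library), so a level has no error of its own, the spread between samples cannot be seen, and the depth of the libraries is unknown.

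The basement membrane is the sheet of matrix on which basal keratinocytes sit. Type IV collagen chains wind into trimers that join into its network, and the chains of Col4a1 and Col4a2 form the trimer found in nearly all basement membranes, while those of Col4a5 and Col4a6 form one that is found in skin and in some other tissues. Col7a1 encodes the collagen of the fibrils that tie the epidermal basement membrane to the dermis, and loss of its function in humans leads to dystrophic epidermolysis bullosa. Fras1 and Frem2 encode large proteins of one complex beneath the embryonic epidermis, and mutations in either lead to Fraser syndrome in humans and to blebs of the fetal skin in mice. Suprabasal cells have left this sheet.

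All 10 genes had a lower level in BT than in WT cells in both layers. The median log2 ratio, BT over WT, was -1.34 for the 10 genes in suprabasal cells, beside -0.08 over all loci of that table, and -1.10 in basal cells, beside -0.12 over all loci. The BT level was less than 50% of the WT level for 6 genes in suprabasal cells and for 6 in basal cells. A locus is called here when the q (adjusted p) in the authors' deposited table is under 0.05. By that rule 2 of the 10 genes were called lower in suprabasal cells, where 0.419% of all loci were called lower and 0.0523% higher. In basal cells 6 of the 10 were called lower, where 1.39% of all loci were called lower and 0.257% higher. Since the genes were chosen on these contrasts, nothing is read from those counts. In these bulk samples fewer cells that express a gene and less of its RNA per cell cannot be told apart.

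**Figure D1:**
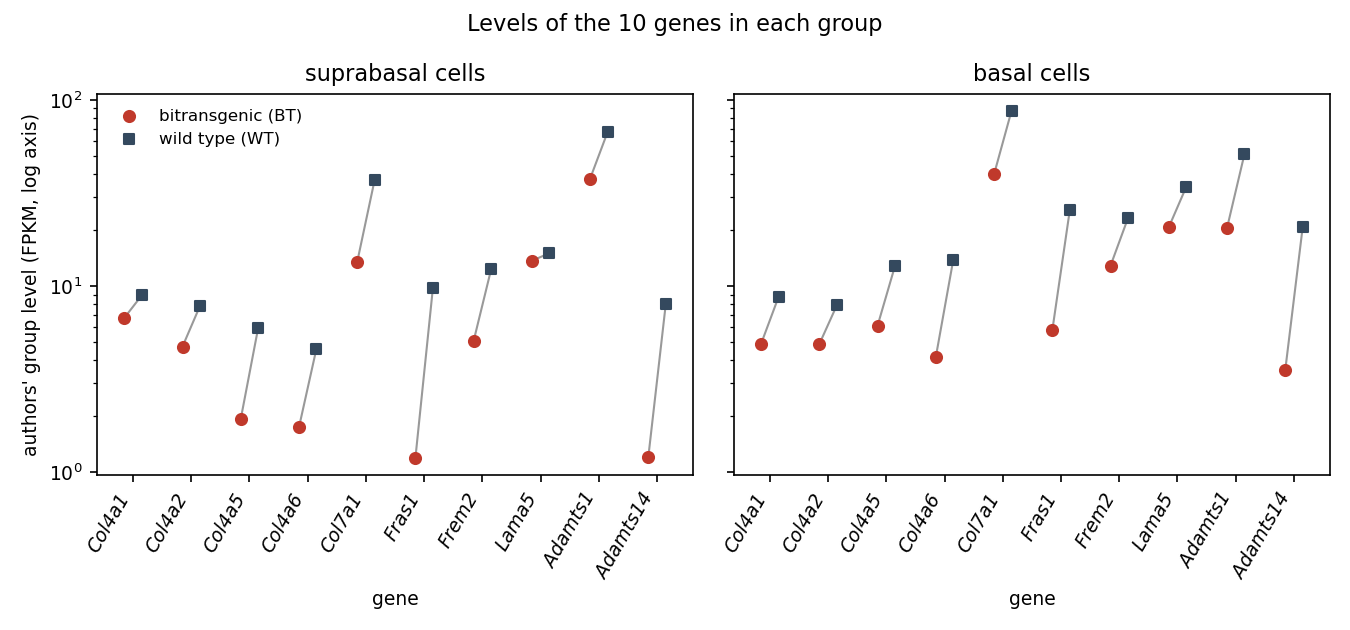
The authors' group levels of the 10 genes in FPKM on a log axis, with BT (circles) and WT (squares) joined for each gene, in suprabasal cells (left) and basal cells (right). Every BT level lies under its WT level, and the steepest lines are those of Fras1 and Adamts14.

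The pair of X-linked collagen genes, Col4a5 and Col4a6, encodes the chains of the skin trimer. In suprabasal cells Col4a6 had 1.74 FPKM in BT and 4.60 FPKM in WT cells. In basal cells it had 4.16 FPKM in BT and 13.9 FPKM in WT cells. The BT level was thus 37.8% of the WT level in suprabasal cells and 30.0% in basal cells. The log2 ratio was -1.40 ± 0.45 in suprabasal cells (q = 0.141 in the authors' deposited table) and -1.74 ± 0.43 in basal cells (q = 0.00858 in the authors' deposited table). Here and below, ± is the standard error (SE) implied by the authors' p-value, and it is an upper bound wherever that p is the smallest of the table, 5e-05, as it is for Col4a6 in basal cells. Col4a6 was therefore called lower in basal cells, and its suprabasal ratio of similar size was not called.

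For Col4a5 the level in suprabasal cells was 1.93 FPKM in BT and 5.97 FPKM in WT. Its level in basal cells was 6.13 FPKM in BT and 12.9 FPKM in WT. The log2 ratio of Col4a5 was -1.63 ± 0.53 in suprabasal cells (q = 0.141 in the authors' deposited table) and -1.07 ± 0.33 in basal cells (q = 0.0371 in the authors' deposited table). Col4a5, too, was called in the basal layer alone. That basal call did not hold after Benjamini-Hochberg readjustment of the p-values of the authors' deposited table over the analysed loci (adjusted p = 0.120). In the levels as deposited, the suprabasal ratio of Col4a5 was the more negative one. Its BT suprabasal level ranked 11015 of 11464 loci, near the lower end. With a pseudocount of 5 FPKM the log2 ratio was -0.66 in suprabasal and -0.68 in basal cells, so that order did not hold.

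Both genes lie next to each other on the X chromosome and are read away from each other. In the GENCODE annotation of GRCm38, the assembly also called mm10, Col4a6 spans chrX:141165403-141474076 on the minus strand and Col4a5 chrX:141475385-141689234 on the plus strand, with 1308 bases between their starts. The stretches before the starts are shown because the genes face each other across this gap and were lower together. They are the RefSeq promoter windows (GRCm38.p6) of 250 bases before the RefSeq start, cut where an annotated exon begins, and run 5′ to 3′ on the strand of the gene, chrX:141474077-141474326 for Col4a6 and chrX:141475169-141475384 for Col4a5. Capitals mark matches to the motifs searched.
Col4a6: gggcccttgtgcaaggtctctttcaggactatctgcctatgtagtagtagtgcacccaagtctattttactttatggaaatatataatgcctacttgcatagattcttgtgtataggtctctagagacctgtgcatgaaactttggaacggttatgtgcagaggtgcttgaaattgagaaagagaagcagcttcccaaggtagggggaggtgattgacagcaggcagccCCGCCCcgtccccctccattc
Col4a5: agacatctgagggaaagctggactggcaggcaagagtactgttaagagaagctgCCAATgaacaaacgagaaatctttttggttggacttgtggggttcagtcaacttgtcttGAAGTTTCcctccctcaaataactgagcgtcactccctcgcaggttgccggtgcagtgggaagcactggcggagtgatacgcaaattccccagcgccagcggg

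On either strand the search covered the GC box (GGGCGG), the CCAAT box (CCAAT), the TATA box (TATAAA), the AP-1 motif (TGANTCA), TCF/LEF motifs (CTTTGAA or CTTTGAT) and a heat shock element (GAANNTTC). The Col4a6 window held 1 GC box, 15 bases before the start. The window of Col4a5 held 1 CCAAT box and 1 heat shock element, both shown, and 1 GC box in the bases cut off. Among 32851 RefSeq promoter windows of this length, 32.7% held a GC box, 33.8% a CCAAT box, 12.4% a TATA box, 6.75% an AP-1 motif, 7.48% a TCF/LEF motif and 6.69% a heat shock element. The AP-1 and TCF/LEF letters were not in the window of any of the 9 genes of the set with a RefSeq window.

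The sex of the animals touches these X-linked genes, since the samples of the genotypes differed in sex-linked RNA. The merged locus with Xist, the RNA of the inactive X chromosome, had 103 FPKM in BT and 0.236 FPKM in WT suprabasal cells, and 108 FPKM in BT and 0.258 FPKM in WT basal cells. The 5 loci of 4 Y-linked genes had log2 ratios from -1.31 (Kdm5d) to 0.10 (the higher of the Uty loci) in suprabasal cells and from -1.32 (the same Uty locus) to -0.61 (Eif2s3y) in basal cells, and none was called. That Uty locus had 71.6 FPKM in BT and 66.7 FPKM in WT suprabasal cells, and 25.5 FPKM in BT and 63.6 FPKM in WT basal cells. Other loci on the X chromosome had a median log2 ratio of 0.01 in suprabasal cells (347 loci, 0 called lower) and -0.01 in basal cells (348 loci, 2 called lower). Of 16 listed neighbours of Col4a5 and Col4a6, 10 were measured in suprabasal cells, with a median of -0.02, and 9 in basal cells, with a median of 0.16 and 1, Ammecr1, called higher, though not after readjustment. The other 8 genes of the set are autosomal and had lower levels in BT cells as well. A part of sex in the ratios was not tested.

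A second basal locus carries the name Col4a6, with the same bounds as the first. It had 3.01 FPKM in BT and 7.93 FPKM in WT cells, a log2 ratio of -1.40 ± 1.57 (q = 0.697 in the authors' deposited table). On the X chromosome the authors' locus numbers follow the strand. Of 159 single-gene loci in the lower block of numbers, 157 are annotated on the plus strand, and of 179 in the upper block 176 are on the minus strand. The second locus lies in the lower block and the first in the upper one, where the minus-strand gene Col4a6 belongs, so only the first is used as Col4a6 in every count here. The kit made strand-specific libraries, per the labels, and whether reads were assigned by strand is not given in the sources used here.

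Col4a1 and Col4a2 encode the chains of the common trimer and are also a divergent pair, on chromosome 8. Col4a1 had 6.74 FPKM in BT and 8.91 FPKM in WT suprabasal cells, and 4.90 FPKM in BT and 8.75 FPKM in WT basal cells. Col4a2 had 4.73 FPKM in BT and 7.81 FPKM in WT suprabasal cells, and 4.88 FPKM in BT and 7.88 FPKM in WT basal cells. The WT levels of both genes were nearly the same in the layers, unlike those of Col4a5 and Col4a6. The log2 ratio of Col4a1 was -0.40 ± 0.50 in suprabasal and -0.84 ± 0.39 in basal cells, and that of Col4a2 was -0.72 ± 0.63 in suprabasal and -0.69 ± 0.41 in basal cells. None of these ratios was called (q from 0.271 to 0.910 in the authors' deposited table). The annotated transcripts of the pair overlap by 22 bases at their starts (Col4a1 at chr8:11198423-11312826, Col4a2 at chr8:11312805-11449287), and both carry the same locus bounds in the tables.

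Col7a1, the anchoring fibril collagen gene, had the highest level of the 10 genes in basal cells. It had 13.5 FPKM in BT and 37.2 FPKM in WT suprabasal cells. In basal cells the level was 39.9 FPKM in BT and 87.4 FPKM in WT. The log2 ratio was -1.47 ± 0.49 in suprabasal cells (q = 0.141 in the authors' deposited table) and -1.13 ± 0.41 in basal cells (q = 0.0699 in the authors' deposited table), so Col7a1 was called in neither layer. Its locus also names Ucn2, a peptide hormone gene that lies on the same strand just downstream, and reads of either gene count toward this level.

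Lama5 encodes the alpha chain of a laminin of the epidermal basement membrane that is needed for hair growth in mice. In suprabasal cells it had 13.7 FPKM in BT and 15.02 FPKM in WT, a BT level of 91.0% of WT. In basal cells it had 20.7 FPKM in BT and 34.1 FPKM in WT, or 60.7%. The log2 ratio was -0.14 ± 0.44 in suprabasal and -0.72 ± 0.36 in basal cells and was called in neither (q = 0.982 and q = 0.371 in the authors' deposited table). In suprabasal cells the Lama5 ratio was the nearest to 0 among the 10 genes and lay close to the median of all loci.

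Fras1 and Frem2, the Fraser complex genes, differed in the size of their ratios. Fras1 had 1.19 FPKM in BT and 9.76 FPKM in WT suprabasal cells. In basal cells Fras1 had 5.77 FPKM in BT and 25.5 FPKM in WT. The BT level of Fras1 was thus 12.2% of WT in suprabasal and 22.7% in basal cells. The log2 ratio of Fras1 was -3.03 ± 0.75 in suprabasal cells (q = 0.0161 in the authors' deposited table) and -2.14 ± 0.53 in basal cells (q = 0.00858 in the authors' deposited table), and it was called in both layers. Both SEs are upper bounds. The BT suprabasal level of Fras1 ranked 11288 of 11464 loci, close to the lower end of what the table holds, where a ratio is least certain.

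Frem2, whose protein binds that of Fras1, had 5.08 FPKM in BT and 12.3 FPKM in WT suprabasal cells. Its basal levels were 12.9 FPKM in BT and 23.2 FPKM in WT. The log2 ratio of Frem2 was -1.28 ± 0.37 in suprabasal cells (q = 0.0771 in the authors' deposited table) and -0.85 ± 0.29 in basal cells (q = 0.0418 in the authors' deposited table). Frem2 was called in basal cells only, and that call ended on readjustment of the p-values of the authors' deposited table over the analysed loci (Benjamini-Hochberg adjusted p = 0.199). In WT basal cells Fras1 and Frem2 stood at similar levels per length, and in BT basal cells Frem2 was the higher of the pair. In BT suprabasal cells, too, Frem2 stood above Fras1.

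Adamts1 and Adamts14 are secreted metalloproteases. Adamts1 cleaves proteoglycans such as versican and aggrecan, and Adamts14 belongs with Adamts2 and Adamts3 to the subgroup that removes the amino-terminal propeptide of fibrillar procollagens. Adamts14 had 1.21 FPKM in BT and 8.03 FPKM in WT suprabasal cells. In basal cells Adamts14 had 3.52 FPKM in BT and 20.7 FPKM in WT. The BT level of Adamts14 was 15.1% of the WT level in suprabasal and 17.0% in basal cells, nearly the same proportion in the levels as deposited. Its BT suprabasal level ranked 11281 of 11464 loci, as near the lower end as that of Fras1, and with a pseudocount of 5 FPKM the log2 ratio was -1.07 in suprabasal and -1.59 in basal cells. The log2 ratio of Adamts14 was -2.73 ± 0.67 in suprabasal cells (q = 0.0161 in the authors' deposited table) and -2.56 ± 0.63 in basal cells (q = 0.00858 in the authors' deposited table), with both SEs upper bounds. Adamts14 and Fras1 were the 2 genes of the set called in both layers.

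Adamts1 had 37.8 FPKM in BT and 67.2 FPKM in WT suprabasal cells, the highest levels of the set in that layer. In basal cells Adamts1 had 20.5 FPKM in BT and 51.1 FPKM in WT. Adamts1 was thus the gene of the set whose level was higher in the suprabasal than in the basal layer by the most, in BT as in WT cells. Its log2 ratio was -0.83 ± 0.38 in suprabasal cells (q = 0.366 in the authors' deposited table) and -1.32 ± 0.33 in basal cells (q = 0.00858 in the authors' deposited table), and it was called in basal cells. The Adamts1 call held on readjustment (Benjamini-Hochberg adjusted p of 0.0128). When the ratios were also centred on the median of expressed loci, a Wald test with the implied SE gave an adjusted p of 0.0521. Because that SE is an upper bound, so is this p, and whether the call would be lost cannot be told.

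The windows before the starts of the Adamts genes are shown for comparison with those of the collagen pair, since Adamts14 was called in both layers and Adamts1 stood highest in suprabasal cells. They lie at chr16:85803114-85803363 for Adamts1 and chr10:61273439-61273669 for Adamts14 (RefSeq, GRCm38.p6), both on the minus strand, written 5′ to 3′ on that strand with motif matches in capitals.
Adamts1: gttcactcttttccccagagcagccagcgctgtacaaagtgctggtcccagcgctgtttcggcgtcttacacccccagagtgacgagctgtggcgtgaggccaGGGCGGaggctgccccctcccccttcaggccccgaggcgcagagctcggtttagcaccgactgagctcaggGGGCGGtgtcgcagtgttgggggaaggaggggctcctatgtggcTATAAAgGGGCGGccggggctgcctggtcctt
Adamts14: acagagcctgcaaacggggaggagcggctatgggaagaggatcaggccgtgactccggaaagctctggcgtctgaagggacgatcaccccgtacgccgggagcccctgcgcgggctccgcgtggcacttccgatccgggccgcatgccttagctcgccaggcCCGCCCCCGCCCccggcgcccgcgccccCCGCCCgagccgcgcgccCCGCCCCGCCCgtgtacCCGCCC

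Adamts1 was the gene of the set with a TATA box in its window, 26 bases before the start, beside 3 GC boxes. The Adamts14 window held 6 GC boxes and no other motif of the search. Over the 250 bases, G and C made up 76.4% for Adamts14, 65.6% for Adamts1, 54.0% for Col4a5 and 47.6% for Col4a6, beside a median of 52.4% over all windows. No motif of this search was in the windows of all 9 genes, which says nothing about which factors bind there.

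**Figure D2:**
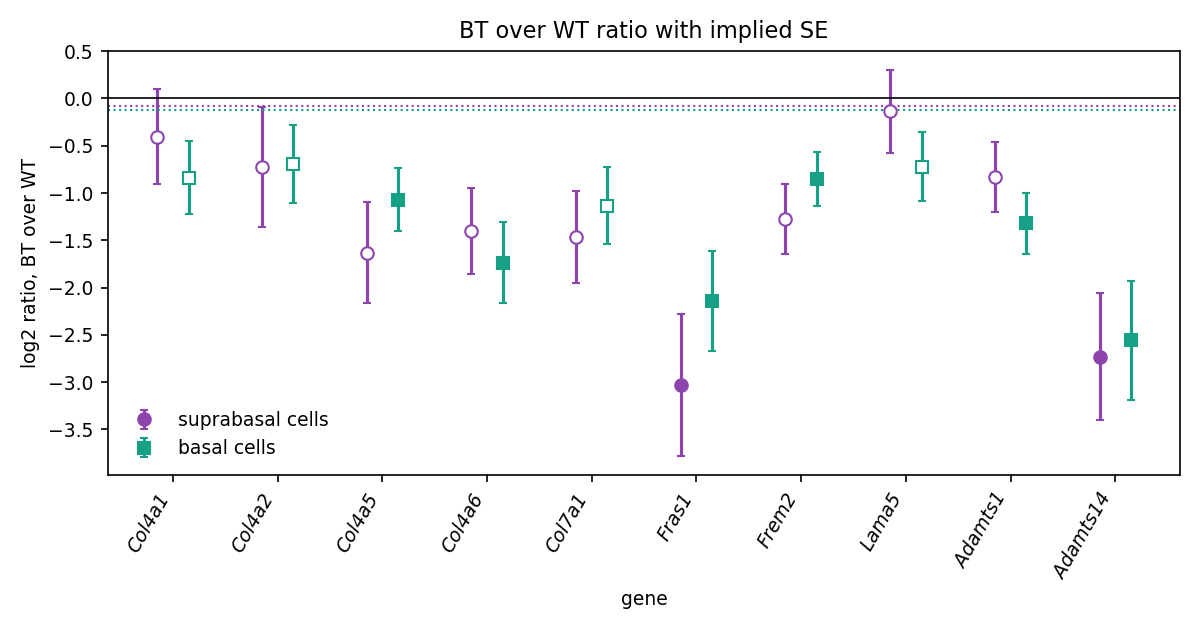
Log2 ratio of BT over WT for each of the 10 genes in suprabasal cells (circles) and basal cells (squares), with bars for 1 SE as implied by the authors' p-value and filled symbols where the authors' q is under 0.05. The dotted lines are the medians of all loci, -0.08 and -0.12, and Fras1 and Adamts14 lie lowest in both layers.

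Between the layers, 8 of the 10 genes had the lower level in suprabasal cells, in BT as in WT cells. Each layer has its own table with its own normalization and the layer ratio has no test, so these are levels set side by side. The suprabasal level was less than 50% of the basal level for 6 of the 10 genes in BT cells and for 6 in WT cells. Among all loci measured in both layers, the shares were 8.49% in BT and 6.88% in WT cells. Since the genes were chosen with these levels known, nothing is read from those counts. The ratio of suprabasal to basal level was lowest for Fras1 in BT cells, at 0.207, and for Col4a6 in WT cells, at 0.332. Col4a2 had 0.969 in BT and 0.992 in WT cells. Adamts1 had 1.85 in BT and 1.31 in WT cells. WT basal cells held the highest level for 8 of the 10 genes and BT suprabasal cells the lowest for 8 of the 10.

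Whether the genotype ratio itself differed between the layers was tested per locus with a two-sided Wald test of the difference in log2 ratio, suprabasal minus basal, with Benjamini-Hochberg adjustment over 10583 loci. None of the 10 genes passed: computed from the p-values of the authors' deposited table, the adjusted p was 1 for each, and the smallest unadjusted p was 0.302. Over all loci 0.0378% passed at the adjusted p and 3.08% had an unadjusted p under 0.05. The difference was below 0 for 6 genes and above 0 for 4. It was -0.89 for Fras1 (95% interval -2.68 to 0.90) and 0.58 for Lama5 (-0.53 to 1.70), the ends of the range. Some SEs in this test are upper bounds, for Fras1 and Adamts14 in both layers and for Col4a6 and Adamts1 in basal cells. For these genes the intervals may be too wide and the p-values too high, so the test may miss a difference. Both intervals include 0, and the calls made in basal cells alone do not show that Col4a5, Col4a6, Frem2 or Adamts1 responded differently by layer.

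**Figure D3:**
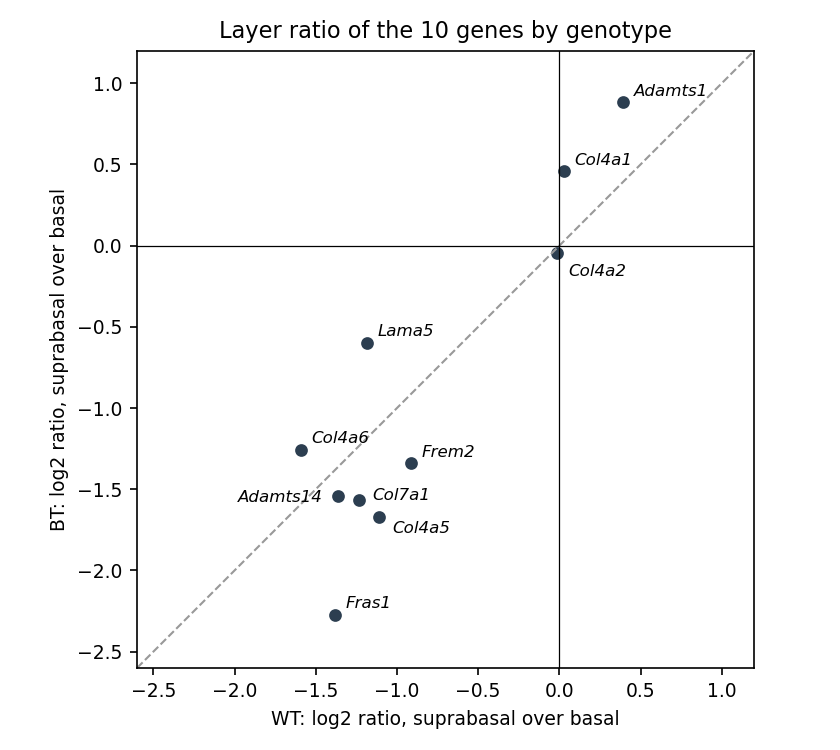
Log2 ratio of suprabasal over basal level for the 10 genes, in BT cells (vertical axis) against WT cells (horizontal axis), with the dashed line where the genotypes have the same ratio. Fras1 lies furthest below the line, at -2.27 in BT and -1.38 in WT cells, and Lama5 and Adamts1 lie above it.

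Most of the 10 genes are long. The choice did not use length as such, but length may go with the kinds of gene chosen, so it is not independent of the choice. Their longest annotated transcripts run from 4.88 kb for Adamts1 to 15.8 kb for Fras1, beside a median of 3.26 kb over suprabasal and 3.21 kb over basal loci. Their spans on the chromosome run from 9.29 kb for Adamts1 to 411 kb for Fras1, beside medians of 22.3 and 21.7 kb. With the 10 genes left out, loci whose longest transcript has 8 kb or more had a median log2 ratio of -0.07 in suprabasal cells (627 loci, 1 called lower) and -0.15 in basal cells (592 loci, 12 called lower). Other loci that span 100 kb or more had medians of -0.04 in suprabasal and -0.19 in basal cells. Within the set, Fras1, the longest by both measures, had the most negative suprabasal ratio, and Adamts14, with 5.19 kb of transcript, the most negative basal one. The part of length in the levels of the 10 genes was not tested.

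Other components of the basement membrane were read from a list of 32 genes that holds the remaining laminins, nidogens, perlecan and their like. In suprabasal cells 21 were measured and none was called, with 15 below 0, 3 at an unadjusted p under 0.05 in the authors' deposited table, and a median log2 ratio of -0.19. In basal cells 19 were measured, 1 was called lower and none higher, 18 lay below 0 and the median was -0.50. Over all loci with an annotated length, 56.5% lay below 0 in suprabasal and 60.3% in basal cells. The share of all loci at an unadjusted p under 0.05 is not given here, so nothing is read from such counts in these lists. The called gene was Tgfbi, which encodes a matrix protein that binds collagen and integrins. It had 15.97 FPKM in BT and 39.98 FPKM in WT suprabasal cells, and 41.3 FPKM in BT and 126 FPKM in WT basal cells (q = 0.0976 in suprabasal and 0.00858 in basal cells in the authors' deposited table). Col17a1, the collagen of hemidesmosomes, had 237 FPKM in BT and 373 FPKM in WT basal cells and was not called. Lamb3, a chain of the main epidermal laminin, had 64.8 FPKM in BT and 86.3 FPKM in WT basal cells, and Sparc, a matrix protein that binds collagen, had 135 FPKM in BT and 179 FPKM in WT basal cells, neither called.

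Of 26 genes that fold, modify and export collagen, 16 were measured in suprabasal cells, none called and none at an unadjusted p under 0.05, with a median of 0.05. In basal cells 15 were measured, 1 was called lower and none higher, and the median was -0.22. The called gene was P4ha2, a catalytic subunit of the collagen prolyl hydroxylase, with 2.39 FPKM in BT and 9.40 FPKM in WT basal cells (q = 0.0371 in the authors' deposited table), and the call ended on readjustment. P4hb, the other subunit of that enzyme, had 141 FPKM in BT and 88.3 FPKM in WT basal cells, and Serpinh1, the collagen chaperone, had 31.9 FPKM in BT and 42.0 FPKM in WT. Cdc42 had 166 FPKM in BT and 114 FPKM in WT basal cells, and Ctage5 33.5 FPKM in BT and 36.9 FPKM in WT. None of these 4 was called in either layer.

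Of 17 receptor and linker genes, 15 were measured in suprabasal and 14 in basal cells and none was called, with 0 and 1 at an unadjusted p under 0.05 in the authors' deposited table and medians of -0.21 and -0.28. Itga6, an integrin of hemidesmosomes, had 85.1 FPKM in BT and 106 FPKM in WT suprabasal cells, and 219.5 FPKM in BT and 241 FPKM in WT basal cells. In basal cells Itgb4, its partner, had 103 FPKM in BT and 164 FPKM in WT. Dst, a linker of hemidesmosomes, had 108 FPKM in BT and 175 FPKM in WT basal cells. Bcam, a receptor for laminins with the Lama5 chain, had 101 FPKM in BT and 165 FPKM in WT basal cells. Their levels were lower in BT cells, by less than the 10 genes' median. The 10 genes were chosen with their ratios known, so nothing is read from that comparison. In basal cells the log2 ratios of Itgb4 (-0.67), Dst (-0.69) and Bcam (-0.71) were close to those of Col4a2 (-0.69) and Lama5 (-0.72). That of Itga6 was -0.14.

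Of 23 other Adamts and Adamts-like genes, 8 were measured in suprabasal and 6 in basal cells, none was called, and 4 and 3 had an unadjusted p under 0.05 in the authors' deposited table. The medians were -0.77 in suprabasal and -0.96 in basal cells, from few and mostly low loci. Adamts9, a protease of the same family as Adamts1, had 9.60 FPKM in BT and 17.0 FPKM in WT basal cells (q = 0.0628 in the authors' deposited table). Papln had 2.90 FPKM in BT and 5.94 FPKM in WT basal cells, and Adamtsl5 6.26 FPKM in BT and 11.6 FPKM in WT. Adamtsl4 had 13.4 FPKM in BT and 3.53 FPKM in WT suprabasal cells, and 0.292 FPKM in BT and 6.66 FPKM in WT basal cells, and neither difference was called. The layers' ratios of Adamtsl4 lie on opposite sides of 0 and did not differ after adjustment (Wald test on the p-values of the authors' deposited table, adjusted p = 0.971).

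Of 23 other matrix proteases and inhibitors, 13 were measured in suprabasal cells, none called and none at an unadjusted p under 0.05, and 15 in basal cells, 1 called lower and none higher. The medians were -0.28 in suprabasal and -0.32 in basal cells. The called gene was the membrane-bound protease Mmp15, with 1.11 FPKM in BT and 3.36 FPKM in WT basal cells (q = 0.0371 in the authors' deposited table), and the call ended on readjustment. Mmp14, a protease of the same subgroup, had 28.1 FPKM in BT and 43.5 FPKM in WT basal cells. Timp3, an inhibitor held in the matrix, had 66.6 FPKM in BT and 73.5 FPKM in WT, Adam10 47.5 FPKM in BT and 46.3 FPKM in WT, and Htra1 83.9 FPKM in BT and 117 FPKM in WT basal cells. None of these 4 was called in either layer.

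**Figure D4:**
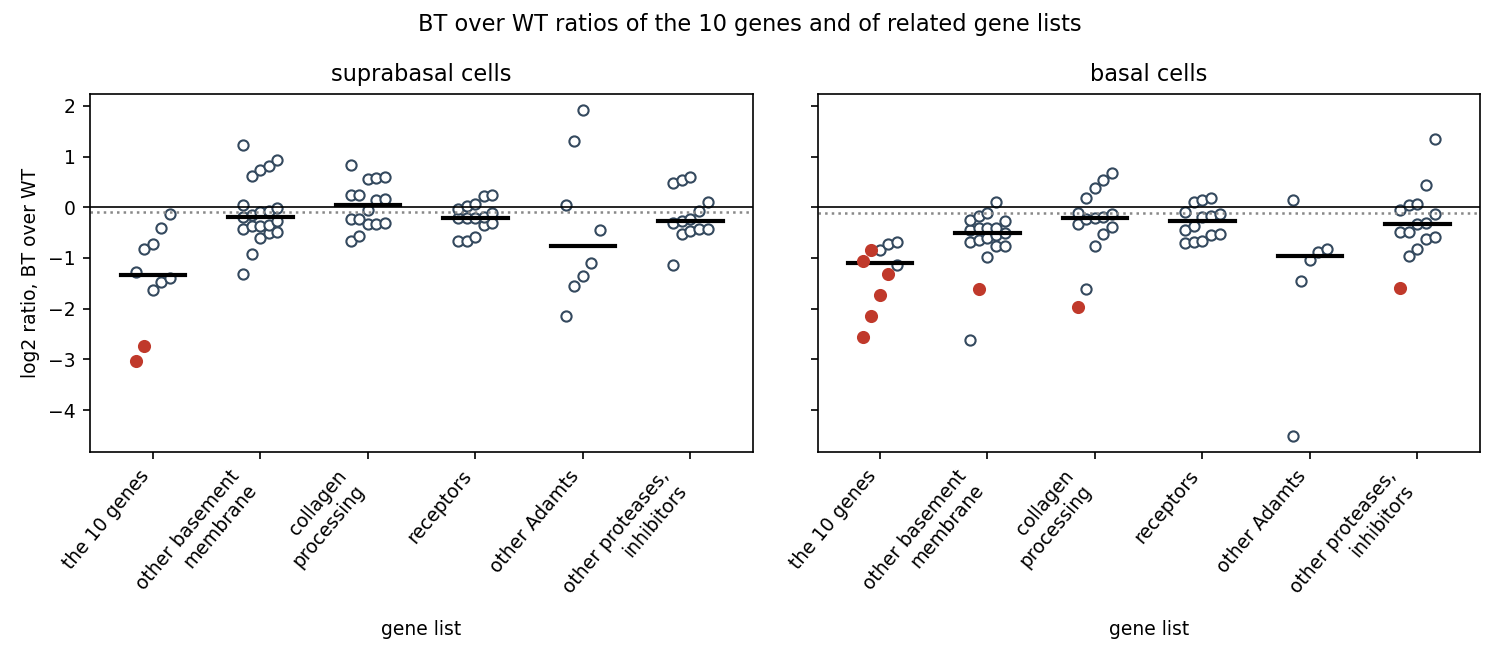
Log2 ratio of BT over WT for each measured locus of the 10 genes and of 5 related lists, in suprabasal cells (left) and basal cells (right), with filled points where the authors' q is under 0.05. Thick bars are list medians and the dotted line is the median of all loci, -0.08 in suprabasal and -0.12 in basal cells.

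Likeness of pattern was measured as the distance between genes over 3 log2 ratios: BT over WT in suprabasal cells, BT over WT in basal cells, and suprabasal over basal in WT. Among 9451 other single-gene loci with at least 5 FPKM in some group, the nearest to Col4a6 were Tgfbi (distance 0.17), Gm17334 (0.23) and Tmem120a (0.35). The nearest to Adamts1 were Ech1 (0.19), Efna4 (0.19) and Slc16a14 (0.21). Col4a5 ranked 32 from Col4a6 at a distance of 0.85, and Col4a2 ranked 176 from Col4a1 at 0.36. With 3 ratios from 4 group levels, these ranks describe the tables and carry no error.

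Markers of other cells were summed in each group, since cells of the dermis also express basement membrane genes. Fibroblast markers (18 listed) had 12 loci in suprabasal cells, summing to 604 FPKM in BT and 483 FPKM in WT, and 8 in basal cells, summing to 230.1 FPKM in BT and 351 FPKM in WT. Vim, which melanocytes also express, gave 492 FPKM of the suprabasal sum in BT and 316 FPKM in WT. Most of the basal sum was Postn, with 161 FPKM in BT and 291 FPKM in WT. The median log2 ratio of the fibroblast markers was 0.61 in suprabasal cells, with 4 of 12 below 0. In basal cells it was -0.86, with 6 of 8 below 0. Most of these markers were thus lower in BT basal cells, as the 10 genes were, while Thy1 (0.85) and Vim (1.43) were higher. Postn, which is also on the list of hair follicle sheath markers, was called lower in suprabasal and Col5a2 in basal cells, and the Col5a2 call ended on readjustment (0.191). Melanocyte markers (8 listed) had 8 loci in suprabasal cells, summing to 3843 FPKM in BT and 2073 FPKM in WT, and 3 in basal cells, at 12.9 FPKM in BT and 8.38 FPKM in WT. Endothelial and leukocyte markers had 1 to 2 loci a layer, summing to at most 16.4 FPKM in any group, and Schwann cell markers 5 loci in suprabasal cells, at 75.3 FPKM in BT and 71.8 FPKM in WT, and 4 in basal cells, at 33.6 FPKM in BT and 36.8 FPKM in WT. Neither table lists a level of 0 for a locus of status OK.

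Markers of the keratinocyte layers moved with the 10 genes in part. The 10 basal keratinocyte markers summed to 4824 FPKM in BT and 8800 FPKM in WT suprabasal cells (median log2 ratio -0.27). In basal cells they summed to 12137 FPKM in BT and 18928 FPKM in WT (median -0.40). Most of each sum came from merged loci. These name Krt14 with Krt16, and Krt5 with Krt2, Krt6b, Krt72, Krt76 and Krt8, so reads of those other keratin genes count too. Krt15 was called lower in both layers, in basal cells not after readjustment (0.0941). The 12 suprabasal keratinocyte markers summed to 14099 FPKM in BT and 18681 FPKM in WT suprabasal cells. In basal cells they summed to 10783.5 FPKM in BT and 8654 FPKM in WT. Their median log2 ratios were 0.09 in suprabasal and 0.25 in basal cells. In basal cells Dsc1 was called higher and Lor lower, Lor not after readjustment (0.0513). Of the listed hair follicle sheath markers, 8 were measured in suprabasal and 7 in basal cells, with medians of -0.44 and 0.11. Tchh was called lower in both layers and Postn in suprabasal cells. Col17a1, Dst, Itga6 and Itgb4 are both basal keratinocyte markers and members of the related lists above. Immediate early and heat shock genes had medians of -1.31 in suprabasal cells (5 of 18 loci called lower) and -0.92 in basal cells (6 of 19 called lower, 4 after readjustment). The part of any of these in the levels of the 10 genes was not tested.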

How the data were processed

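RNA was sequenced from 10 samples of sorted keratinocytes with an amplifying, strand-specific kit, per the labels. TopHat, Cufflinks and mm10 are named in the submitters' processing notes, without versions. The authors deposited a table for each layer, with the column names that Cuffdiff writes. The deposited group levels were read as FPKM from that form and the tools named. The deposited fold changes are log2 ratios of BT over WT, the deposited test statistic is a score that was not used, and each deposited p-value comes with a q-value, both from the authors. How libraries were scaled is not given in the sources used here.

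Loci of status OK were kept (26 left out per table). A call is an authors' q under 0.05. Recomputed log2 ratios differed from the deposited ones by at most 4.13e-05. The SE is the size of the log2 ratio divided by the normal deviate that matches the deposited two-sided p. The layer difference was tested across all loci present in both tables with a Wald test and Benjamini-Hochberg adjustment, in Python 3.11.15 with scipy 1.17.1, and checked on simulated data. It takes the layers as independent, although 4 of 6 title stems occur in both. Nothing says that the samples are separate animals, so p-values may measure technical spread. The members and all lists were chosen with earlier results of these data known. Named beside the 10 genes are the called members of 5 related lists and, where fewer than 4 were called, the 4 with the highest level in WT basal cells, plus the 3 genes of most like pattern to Col4a6 and to Adamts1. Motifs were searched in RefSeq windows (GRCm38.p6), and gene models are from GENCODE M21. Alternatives tried were other thresholds, readjustment, centring on expressed loci (at least 1 FPKM in both groups), a minimum of 5 FPKM, and pseudocounts of 1 and 5 FPKM.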

Additional observations from a re-analysis of the deposited data

How the results depend on the processing

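All 10 genes kept a negative log2 ratio in both layers under pseudocounts of 1 and 5 FPKM and under centring. Centring moved the ratios of all loci by 0.08 in suprabasal and 0.11 in basal cells, the sizes of the medians of expressed loci (-0.08 and -0.11). Readjustment over the analysed loci left 4 basal calls, against 6 by the authors' q, and 2 suprabasal ones, and ended those of Col4a5 (adjusted p of 0.120) and Frem2 (0.199). Centring with readjustment (Wald test with the implied SE) left 3 basal calls. The adjusted p was then 0.0481 for each of Col4a6, Fras1 and Adamts14, which stayed called. It was 0.0521 for Adamts1, 0.268 for Col4a5 and 0.417 for Frem2. The Adamts1 value is an upper bound, as its SE is, so the loss of that call is not certain. Adamts1 and the 3 genes that stayed called share the smallest p of the table, 5e-05, so their implied SEs are in proportion to their ratios. The size of the ratio alone thus separates Adamts1 from those 3, and no difference in evidence is read from it. At q under 0.01 in the authors' deposited table, 0 genes of the set were called in suprabasal cells. The smallest p of that layer, 5e-05, came with a q of 0.0161, so no locus could be called there at this limit. In suprabasal cells 7 of the 10 genes had an unadjusted p under 0.05 by the authors' values. The share of all loci at that p is not given here and the genes were chosen on this contrast, so nothing is read from this count. The suprabasal median of the 10 genes was -0.71 with a pseudocount of 5 FPKM, where Col4a5, Col4a6, Fras1 and Adamts14 had 1.19 to 1.93 FPKM in BT cells. The basal median was then -0.86, so the order of the layers was the reverse of that without a pseudocount (-1.34 in suprabasal and -1.10 in basal cells). The order turned for Fras1 as well, with -1.25 in suprabasal and -1.50 in basal cells. The log2 ratio of suprabasal over basal level of Col4a2 in WT cells turned to 0.0076 after scaling to the median of expressed loci. No gene of the set passed the test between layers under any alternative run. No paired analysis was possible because each group is held as 1 pooled value, and for the same reason no replicate could be left out. Depth is unknown, so no limit of detection can be set for the low BT levels.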
